A study of Homo sapiens with 2 samples.

Results

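The genes described here place a neuron along the head-to-tail axis of the brainstem: HOXA2, HOXA3, HOXB1, HOXB2, EN1, EN2, OTX2 and GBX2, which are 8 of the 61487 genes counted in each library. They were selected on measured values of these same libraries, in which HOXA2 had been singled out after its level was seen. The differences between the libraries are therefore given as descriptions, without a test, and nothing is supported with the size of the HOXA2 difference. Each member was found once by its symbol in both gene tables.

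Human embryonic stem cells of the line WA09 (H9) with an EGFP reporter knocked in at TPH2, the gene of the enzyme that starts serotonin synthesis in neurons, were differentiated towards serotonin neurons, and at day 42 the cells with EGFP were collected by sorting. The library labelled WT came from cells with this reporter alone, and the library labelled FKO from cells with the same reporter and a knockout of FOXA2, a transcription factor of the floor plate. Both went through 10x Genomics 3' single-cell sequencing (v3 kit), which counts molecules by their unique molecular identifiers (UMIs). By the study's account the knockout line carries a frameshifting insertion or deletion in FOXA2, made by CRISPR/Cas9 and ending in an early stop codon. How many clones the sequenced line stands for, and which dose of the SHH agonist purmorphamine each sequenced library received, is not given in the sources used here, and in other assays of the study that dose differed between the genotypes.

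There was 1 library per condition, so no difference between conditions has a replicate check. Every interval given is exact, at the 95% level, and covers counting error only. The limit that a count of 0 allows is given apart from these, as 3 counts over the total. In the library labelled WT 123064653 UMIs lay in 11052 barcodes, and 5746 of them were kept as cells, with 76624608 UMIs and a median of 12439.5 UMIs per cell. In that labelled FKO 70588747 UMIs lay in 8806 barcodes, and 6979 were kept, with 57980260 UMIs and a median of 6936. The libraries shared 21 barcodes, 5 of them among the kept cells. Levels are given as CPM, the summed UMIs of a gene over the summed UMIs of the cells named, scaled to 1e6.

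FOXA2 (ENSG00000125798), the targeted gene, had 333 UMIs in the kept cells labelled WT (4.35 CPM) and 1301 in those labelled FKO (22.4 CPM). With the level labelled FKO divided by that labelled WT, the log2 ratio was 2.37 (2.19 to 2.55), so the transcript of FOXA2 went against the labels. Each library keeps the name of its label below, and each direction rests on those labels. Reads from the 3' end count transcripts, which a frameshift can leave in place, and do not tell an edited copy of the gene from an intact one, so they do not check the knockout.

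The sorted cells carried the markers of serotonin neurons. All 10 of 10 serotonergic markers had UMIs in both libraries, and they summed to 2931 CPM in the library labelled WT against 2475 CPM in that labelled FKO. FEV, the transcription factor that marks newly born serotonin neurons, was the most abundant of them, with 1582 and 909.8 CPM. That order came from FEV, for the other 9 summed to 1349.6 and 1565.7 CPM, and by gene 5 were higher in each library. A cell with at least 1 FEV UMI is called FEV-positive here: 5626 cells labelled WT and 6352 labelled FKO were, which leaves 120 and 627 FEV-negative cells. In the FEV-negative cells the serotonergic markers other than FEV summed to 231.1 and 335.5 CPM, with GATA3 the most abundant.

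The hindbrain is laid out in the embryo as a row of segments, the rhombomeres. OTX2 marks the forebrain and midbrain and GBX2 the front of the hindbrain, and the border between them becomes the midbrain-hindbrain boundary, around which EN1 and EN2 are expressed into r1. HOX genes begin behind it in a staggered order: HOXA2 reaches forward to the border of r1 and r2, HOXB2 to that of r2 and r3, HOXB1 stays on in r4, and HOXA3 starts further back. Serotonin neurons of the rostral raphe groups arise mainly from r1 to r3 and carry EN1 where they come from r1, while those of the caudal groups arise behind r4, and r4 itself gives mostly visceral motor neurons in their place.

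HOX proteins bind DNA together with partners of the PBX and MEIS families, and this pairing also acts on the HOX genes themselves. The promoters of HOXA2 and HOXB1 are shown because HOXA2 is the member on which the results turn and HOXB1 the member at 0, and because they are the members whose promoter held the motif searched for. That motif, TGATNNAT, a form of the joint PBX and HOX site, was looked for on both strands in the 300 bases from 250 before to 50 after each start, and a match is in capitals. The sequences are from RefSeq (GRCh38.p14), 5′ to 3′ on the strand of the gene, at chr7:27102634-27102933 (minus strand) for HOXA2 and chr17:48530962-48531261 (minus strand) for HOXB1.
HOXA2: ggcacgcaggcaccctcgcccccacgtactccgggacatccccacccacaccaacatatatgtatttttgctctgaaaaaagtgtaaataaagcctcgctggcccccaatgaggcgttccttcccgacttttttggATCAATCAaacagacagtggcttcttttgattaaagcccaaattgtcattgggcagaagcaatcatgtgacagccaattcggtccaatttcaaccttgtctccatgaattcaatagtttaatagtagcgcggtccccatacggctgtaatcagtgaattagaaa
HOXB1: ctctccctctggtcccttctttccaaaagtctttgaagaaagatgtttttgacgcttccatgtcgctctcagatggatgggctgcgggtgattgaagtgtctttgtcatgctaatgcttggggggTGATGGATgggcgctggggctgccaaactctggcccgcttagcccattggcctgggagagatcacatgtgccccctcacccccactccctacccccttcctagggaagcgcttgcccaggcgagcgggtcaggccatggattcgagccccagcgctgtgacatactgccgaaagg
The match in HOXA2 lay at -114 on the other strand of the gene and that in HOXB1 at -125 on its own strand. Entries were found for 6 of the 8 members, with 13 promoters in all, and 2 of these members held the motif. EN1 and HOXB2 had no entry. Among all 35116 promoters of this length 2598 (7.40%) held it, so a match describes these letters and is not evidence of a bound site.

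Of the HOX members, HOXA2 alone had more than 9 UMIs in a library. HOXA2 (ENSG00000105996), which patterns r2 and r3, had 407 UMIs in the library labelled WT, or 5.31 CPM (4.81 to 5.85), in 364 of 5746 cells. It had 19 UMIs in the library labelled FKO, or 0.328 CPM (0.197 to 0.512), in 15 of 6979 cells. The level was thus 16.2-fold lower (10.2 to 27.2) in the library labelled FKO (log2 ratio -4.02, -4.77 to -3.36). At the level of the library labelled WT, 308 UMIs would have been counted there. Most cells with the transcript held a single copy: 327 of the 364 cells labelled WT had 1 UMI, and the highest count in a cell was 3.

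The members that mark more caudal segments were at or near the limit of detection. HOXA3 (ENSG00000105997), which starts behind r4, had 9 UMIs (0.117 CPM) in the library labelled WT against 0 in that labelled FKO, where 0 allows up to 0.0517 CPM. At the level of the library labelled WT (0.0537 to 0.223 CPM), 6.81 UMIs would have been counted there. HOXB2 (ENSG00000173917), expressed from r3 backwards, had 1 UMI in the library labelled WT against 2 in that labelled FKO, too few for a fold. HOXB1 (ENSG00000120094), the r4 gene, had 0 UMIs in both, which allows up to 0.0392 CPM in the library labelled WT against 0.0517 in that labelled FKO.

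The rest of the HOX clusters was as sparse. Of the 12 genes of the HOX1 to HOX4 groups, 11 were under 1 CPM in both libraries, and the whole list had 428 UMIs in the library labelled WT against 25 in that labelled FKO, most of them HOXA2. All 27 genes of the HOX5 to HOX13 groups, which mark the spinal cord, were under 1 CPM, with 7 and 24 UMIs in all. Among 11 antisense RNAs of the HOX clusters 10 were under 1 CPM, and the exception was HOTAIRM1.

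HOTAIRM1 (ENSG00000233429) is a noncoding RNA made beside HOXA2, on the opposite strand. It had 1254 UMIs in the library labelled WT (16.4 CPM, 15.5 to 17.3) and 44 in that labelled FKO (0.759 CPM, 0.551 to 1.02) (log2 ratio -4.43, -4.90 to -3.997). HOXA2 and its neighbour thus differed between the libraries in the same direction. By RefSeq positions and GENCODE strands the 3' ends of HOTAIRM1 and HOXA2 face each other with 95 bases between them and do not overlap, and whether reads of either strand entered the deposited counts is not stated in the labels.

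EN1 and EN2 mark the territory around the midbrain-hindbrain boundary, in front of the HOX domain. EN1 (ENSG00000163064) had 5379 UMIs in the library labelled WT, or 70.2 CPM (68.3 to 72.1), in 43.2% of the cells. It had 9171 UMIs in the library labelled FKO, or 158.2 CPM (155.0 to 161.4), in 53.4% of the cells, although these cells were sequenced less deeply. Its log2 ratio was 1.17 (1.12 to 1.22), or 0.70 once the median of all genes, 0.48, was taken off.

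EN2 (ENSG00000164778), the second engrailed gene, had 20 UMIs in the library labelled WT (0.261 CPM, 0.159 to 0.403) and 143 in that labelled FKO (2.47 CPM, 2.08 to 2.91). Its log2 ratio was 3.24 (2.56 to 3.99), and both engrailed genes were therefore higher there. Among cells with at most 5% mitochondrial UMIs, which are 338 of the library labelled WT and 2891 of that labelled FKO, the ratio of EN2 rested on 2 and 54 UMIs and its interval covered 0 (1.91, -0.01 to 4.99). GBX2 (ENSG00000168505), the gene of the anterior hindbrain, had 43 UMIs (0.561 CPM) in the library labelled WT against 24 (0.414 CPM) in that labelled FKO. The interval of its log2 ratio, -0.44 (-1.22 to 0.31), covered 0. At the same 5% limit it was 0.61 (-2.17 to 6.04), from 1 and 11 UMIs, so neither value sets a direction.

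OTX2 (ENSG00000165588), the forebrain and midbrain gene, had 1 UMI in the library labelled WT against 45 UMIs in that labelled FKO (0.776 CPM, 0.566 to 1.04). The log2 ratio was 5.89 with an interval of 3.34 to 11.23, wide because of the single UMI. The transcript was confined to few cells: 27 of the 6979 cells labelled FKO held it, 12 of them with more than 1 UMI. Its position in front of the boundary sets OTX2 apart from the other members, and it was the rarest member detected in the library labelled WT together with HOXB2.

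**Figure D1:**
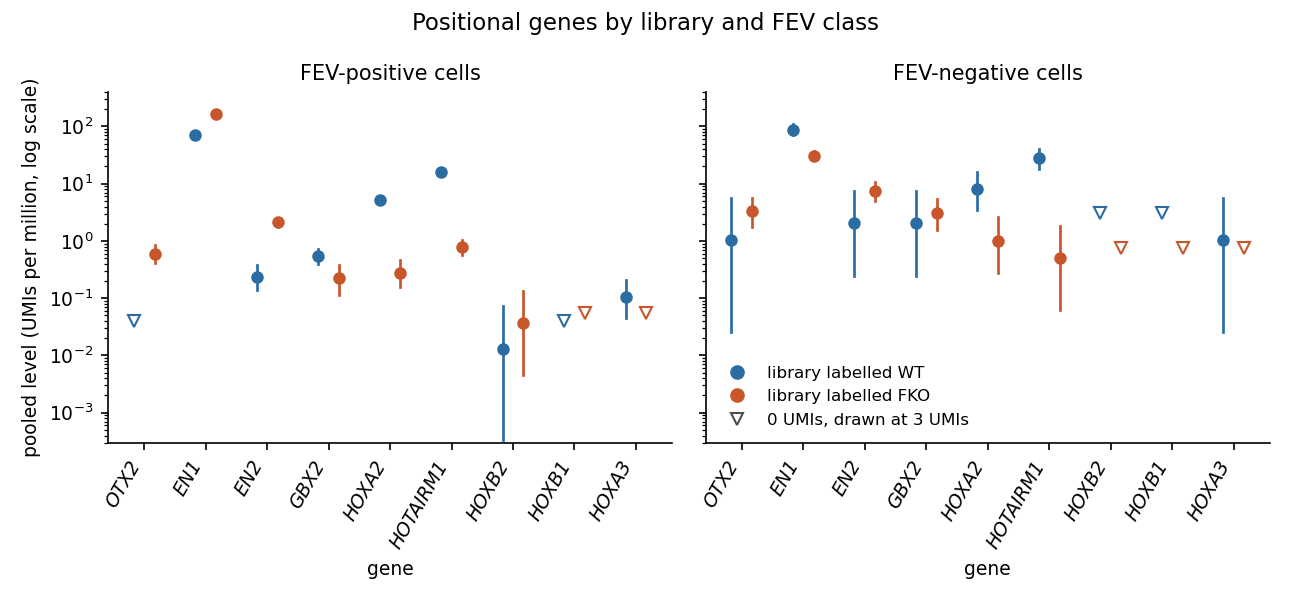
Pooled level in CPM (log axis) of the 8 members and HOTAIRM1 in FEV-positive and FEV-negative cells of each library, with exact 95% Poisson intervals as lines and counts of 0 as open triangles at 3 UMIs. In FEV-positive cells EN1 stood at 70.0 CPM in the library labelled WT against 167.4 in that labelled FKO, and HOXA2 at 5.27 and 0.277.

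Comparing all genes between the libraries gives the setting for these differences. Over the 9680 genes with at least 10 CPM in either library, 5.72% were more than 2-fold higher in the library labelled FKO and 9.75% more than 2-fold lower, each relative to the median. EN1 was the single member among the 8 that reached 10 CPM, and 0 of this 1 lay past 2-fold. HOXA2 and the other members stood below that level in both libraries. Over the 16402 genes with at least 1 CPM in either, which take in HOXA2 and EN2, 11.7% were past 2-fold higher and 11.1% past 2-fold lower. Before the median is taken off, 76.05% of these 16402 genes stood higher with the label FKO, so a tally of that side describes most genes.

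The genes around the boundary did not all go with the engrailed genes. Of the 13 genes of the boundary list, 7 were under 1 CPM in both libraries, among them the boundary signals FGF8 and WNT1, and 5 of the other 6, EN1 and EN2 among them, stood higher with the label FKO, or 3 once the median of all genes was taken off. FGF17, an FGF signal of the boundary, had 0.835 CPM in the library labelled WT against 3.64 in that labelled FKO (log2 ratio 2.12). SPRY1 and SPRY2, which FGF signals induce, had log2 ratios of 0.08 and -0.54, and FGF18 one of 0.32. After the median of all genes was taken off, SPRY1 (-0.39) and FGF18 (-0.15) stood on the lower side.

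Among 12 genes of the forebrain and midbrain, 9 were under 1 CPM in both libraries. OTX1, a relative of OTX2, had 0.170 CPM in the library labelled WT against 1.64 in that labelled FKO (log2 ratio 3.27). LHX2, also known from other brain regions, had 1.67 and 4.35 CPM. SIX3, a gene of the anterior forebrain, went the other way, with 22.7 CPM in the library labelled WT against 7.54 in that labelled FKO.

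The rhombomere list holds segment genes, boundary receptors and enzymes that break down retinoic acid, the signal that switches on anterior HOX genes. Of its 14 genes 4 were under 1 CPM in both libraries, including EGR2, the gene of r3 and r5, and the 10 others split into 7 higher in the library labelled FKO and 3 higher in that labelled WT, or 4 and 6 once the median was taken off. EPHA4, EPHA7 and EFNB2, which keep rhombomeres apart, had log2 ratios between 1.39 and 1.58. CYP26A1, an enzyme that clears retinoic acid, followed HOXA2 instead. It had 220 UMIs (2.87 CPM) in the library labelled WT against 6 (0.103 CPM) in that labelled FKO (log2 ratio -4.79). These UMIs lay in few cells, 61 of 5746 labelled WT and 4 of 6979 labelled FKO.

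The IRX genes of this list stayed closer together. IRX2, its most abundant gene in the library labelled WT, had 98.9 CPM there and 102.1 in that labelled FKO. IRX3 and IRX5 had log2 ratios of 0.15 and 0.25, and IRX1 had -0.84. Once the median of all genes was taken off, IRX2 (-0.43), IRX3 (-0.33) and IRX5 (-0.22) stood lower in the library labelled FKO.

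The partners of HOX proteins split by family. All 9 genes of the list were above 1 CPM in a library. Cells labelled FKO had higher levels of PBX2, PBX3, PBX4 and both PKNOX genes, with log2 ratios between 0.33 and 0.85. PBX2 (-0.15) crossed to the lower side once the median was taken off. The 3 MEIS genes were lower, with MEIS2 at 42.3 and 11.7 CPM (log2 ratio -1.86), MEIS1 at 14.4 and 6.80 (-1.09) and MEIS3 at 153.9 and 121.9 (-0.34).

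**Figure D2:**
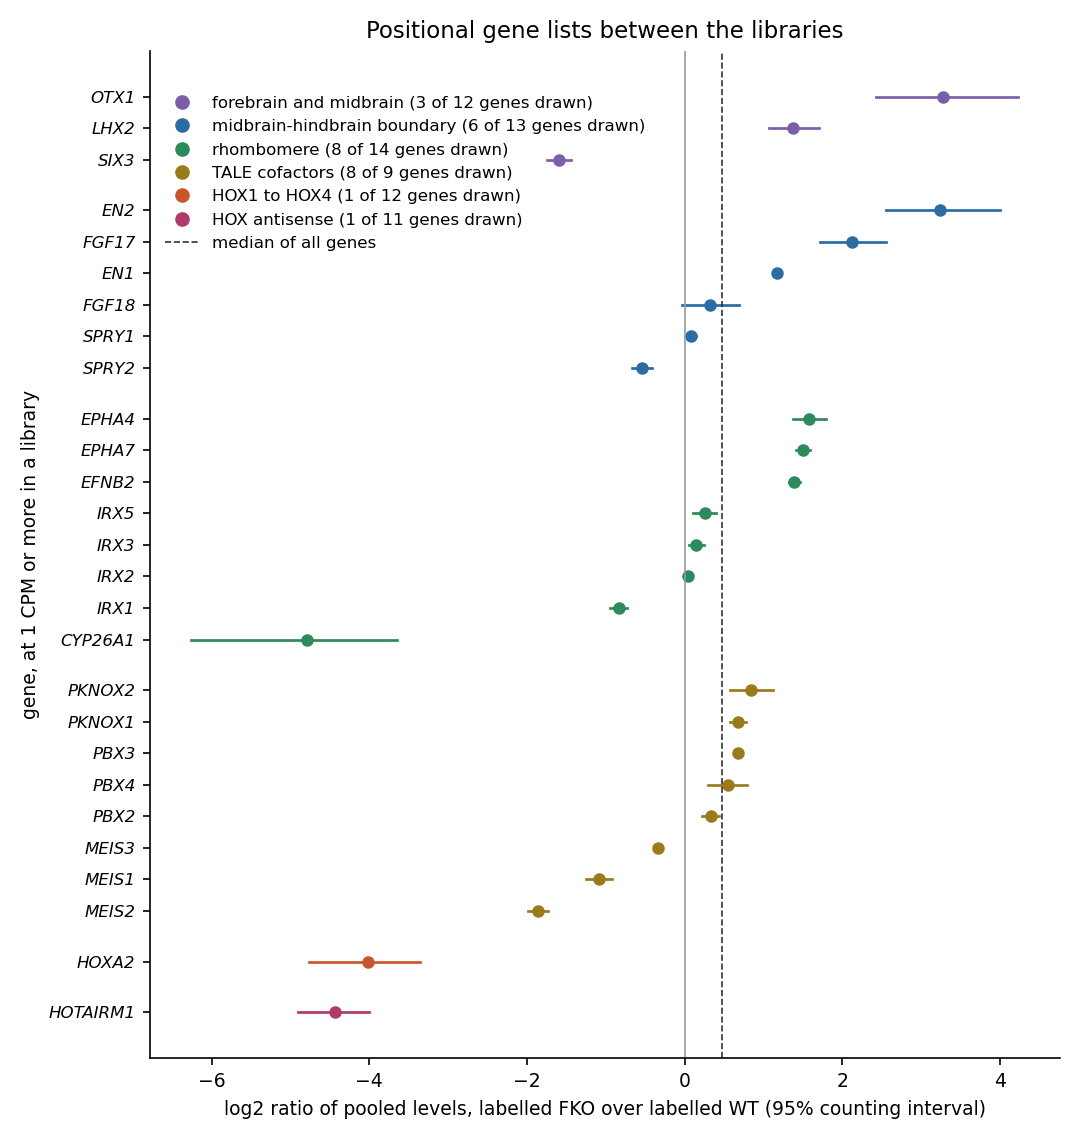
Log2 ratio of pooled levels, library labelled FKO over library labelled WT, for those genes of the positional lists that are drawn, each with at least 1 CPM in a library, with exact 95% intervals, coloured by list; the dashed line is the median of all genes, 0.48. HOXA2 (-4.02), HOTAIRM1 (-4.43) and CYP26A1 (-4.79) stand far to the left, and EN2 (3.24) and OTX1 (3.27) furthest to the right, while SPRY1, FGF18, IRX2, IRX3, IRX5 and PBX2 change side when the median is taken off.

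The FEV-positive cells were read for which of these genes go with FEV, and this class does not hold neurons alone. In the library labelled WT, cluster 6 of the clusters described below carried mesenchymal and cycling markers. That cluster had 188 cells there, more than the 120 FEV-negative cells, so part of it was counted as FEV-positive. Within the library labelled FKO EN1 had 167.4 CPM in FEV-positive cells and 31.1 in FEV-negative cells (log2 ratio 2.43, 2.17 to 2.699). It was the 1 of 8 members compared with all genes there, and it lay past 2-fold after the median of all genes was taken off, as did 2.4% of 10458 genes on the higher side and 9.8% on the lower. With FEV read from cells thinned to 2000 UMIs this ratio was 0.98, and with at least 3 FEV UMIs it was 1.43. Both settings move cells with few FEV UMIs into the FEV-negative class, so they compare other classes. Thinning kept an FEV UMI in 5271 of 6301 FEV-positive cells labelled FKO. Those that lost it outnumbered the 562 thinned cells without FEV at full depth.

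EN1 in the library labelled WT had 70.0 CPM in FEV-positive cells and 87.9 in the 120 FEV-negative cells, of which 1 cell held 19 of the 86 EN1 UMIs. The log2 ratio of -0.33 (-0.64 to -0.01) turned positive with mitochondrial shares of up to 20% (0.08) or over all deposited barcodes (0.68). It was also positive when FEV was read after thinning (0.49) or from 3 UMIs (0.38), which again compare other classes. Thinning kept an FEV UMI in 5096 of 5602 FEV-positive cells here, and those that lost it outnumbered the 101 thinned cells without FEV at full depth. EN1 was again the 1 member compared and not past 2-fold, where 3.74% of 9134 genes were higher and 8.23% lower. The small FEV-negative class of this library thus sets no firm order for EN1.

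HOXA2 in the library labelled WT had 399 UMIs in FEV-positive cells (5.27 CPM, 4.77 to 5.82) and 8 UMIs in FEV-negative cells (8.18 CPM, 3.53 to 16.1). It had, in the library labelled FKO, 15 UMIs (0.277 CPM) and 4 UMIs (1.02 CPM, 0.278 to 2.61). Neither library showed a difference between the classes beyond counting error, with log2 ratios of -0.63 (-1.63 to 0.59) and -1.88 (-3.53 to 0.17), and over all deposited barcodes the first was 0.25. FEV-positive cells held 399 of the 407 HOXA2 UMIs labelled WT and 15 of the 19 labelled FKO, so their 19.01-fold lower level (11.4 to 34.3) largely repeats that of all cells. In those cells too EN1 was the 1 of 8 members compared with all genes, of which 5.68% were past 2-fold higher and 10.1% past 2-fold lower.

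EN2, OTX2 and GBX2 were higher outside the FEV-positive class of the library labelled FKO. EN2 had 2.11 CPM in FEV-positive cells and 7.39 in FEV-negative cells there (log2 ratio -1.81, -2.41 to -1.17), a ratio that was -1.12 with FEV read after thinning and -2.66 (-3.67 to -1.50) at the 5% limit. OTX2 had 0.592 and 3.31 CPM (-2.48, -3.45 to -1.43), but at the 5% limit the interval covered 0 (-1.47, -3.51 to 1.67, on 20 and 2 UMIs). It had 0 UMIs in FEV-positive cells labelled WT, which allows up to 0.0397 CPM. GBX2 had 0.222 and 3.06 CPM in the library labelled FKO (-3.78, -5.07 to -2.50), and 0.542 and 2.05 CPM in that labelled WT, the latter from 2 UMIs. In FEV-positive cells alone GBX2 was lower in the library labelled FKO, with a log2 ratio of -1.29 (-2.35 to -0.33).

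The FEV-negative cells carried more of the markers of other cells. EN2, OTX2 and GBX2 went with these markers in the library labelled FKO, and EN1 went the other way there. In the library labelled FKO the neural progenitor list (6 of 6 genes detected, VIM the most abundant) summed to 896.5 CPM in FEV-positive and 3372 in FEV-negative cells, and in the library labelled WT to 866.4 and 3634. The mesenchymal list (6 of 6, COL1A2 the most abundant) summed to 145.5 and 1433 CPM in the library labelled FKO, against 33.6 and 302.7 in the other, where LUM led in FEV-negative cells and 4 of 6 were detected, COL1A1 and PDGFRA being at 0. The floor plate list (7 of 7) summed to 60.1 and 297.3 CPM in the library labelled FKO, led by FOXA2 in FEV-negative cells, and to 48.8 and 475.5 in that labelled WT, led by SPON1. The part of these cells in the levels of EN2, OTX2 and GBX2 was not tested.

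Because the libraries differed in depth, detection was also compared with every cell thinned to 2000 UMIs. HOXA2 was then found in 63 of 5602 FEV-positive cells labelled WT (1.12%, 0.865 to 1.44%) and in 2 of 6301 labelled FKO (0.0317%, 0.00384 to 0.115%). Thinning left out 24 and 51 cells, and without it the shares were 6.36% and 0.205%, at median depths of 12504.5 and 7022.5 UMIs. The difference in detection between the libraries thus remained at equal depth.

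The FEV-negative cells set the level against which these shares are read. HOXA2 was found there in 0 of 101 thinned cells labelled WT, which allows up to 2.97% (exact interval 0 to 3.59%), and in 2 of 562 labelled FKO (0.356%), and unthinned in 5.0% and 0.319%, at median depths of 7516.5 and 5722 UMIs. At this depth the share of cells with HOXA2 was not distinguishable between the FEV classes of either library.

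EN1 after thinning was found in 11.9% of FEV-positive cells labelled WT (11.03 to 12.7%) and 26.8% of those labelled FKO (25.7 to 27.9%). In FEV-negative cells the shares were 11.9% (12 of 101 cells, 6.29 to 19.8%) and 6.23% (4.38 to 8.56%), and unthinned EN1 was found in 43.6% and 57.3% of FEV-positive and 23.3% and 14.5% of FEV-negative cells. The EN1 share of FEV-positive cells labelled FKO stood above that of their FEV-negative neighbours, and in the library labelled WT the FEV-negative cells were too few to set an order.

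Whether HOX and engrailed transcripts lie in the same FEV-positive cells bears on how sharply these cells keep to r1 or to the segments behind it. Among FEV-positive cells labelled WT, thinned to 4000 UMIs, HOXA2 or HOXB2 was found in 17 of 1127 cells with EN1 or EN2 (1.51%, 0.881 to 2.404%) and in 110 of 4412 cells without (2.49%, 2.05 to 2.997%). The intervals overlapped, the thinning left out 87 cells, and the median depths before it were 12658 and 12575 UMIs. Without thinning the shares were 6.06% and 6.63%. Both kinds of transcript were thus counted in the same barcodes, mostly as single HOXA2 UMIs, and the share that RNA from outside the cell adds was not measured. The shares labelled FKO were 0.158% (4 of 2537 cells) and 0.179% (6 of 3355 cells), with 460 cells left out.

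HOTAIRM1, examined in place of the HOX2 genes after the data had been seen, gave more counts for the same comparison. It was found in 4.53% (3.39 to 5.91%) of the thinned FEV-positive cells labelled WT with an engrailed UMI and in 6.46% (5.75 to 7.23%) of those without. From the other side, EN1 was found in 14.9% (11.7 to 18.5%) of the cells labelled WT with HOXA2 or HOTAIRM1 and in 20.8% (19.7 to 21.9%) of the rest, at median depths of 11822 and 12669 UMIs before thinning. These intervals did not overlap, but they did without thinning (41.5%, 38.7 to 44.4%, and 44.2%, 42.7 to 45.6%) and at 2000 UMIs (10.04%, 6.603 to 14.5%, and 12.0%, 11.1 to 12.9%). HOTAIRM1 was found in 9.45% (4.98 to 15.9%) of thinned cells with HOXA2 and 5.99% (5.37 to 6.65%) of those without, intervals that overlap, and without thinning in 29.9% (25.2 to 34.9%) and 15.5% (14.5 to 16.5%), which do not.

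**Figure D3:**
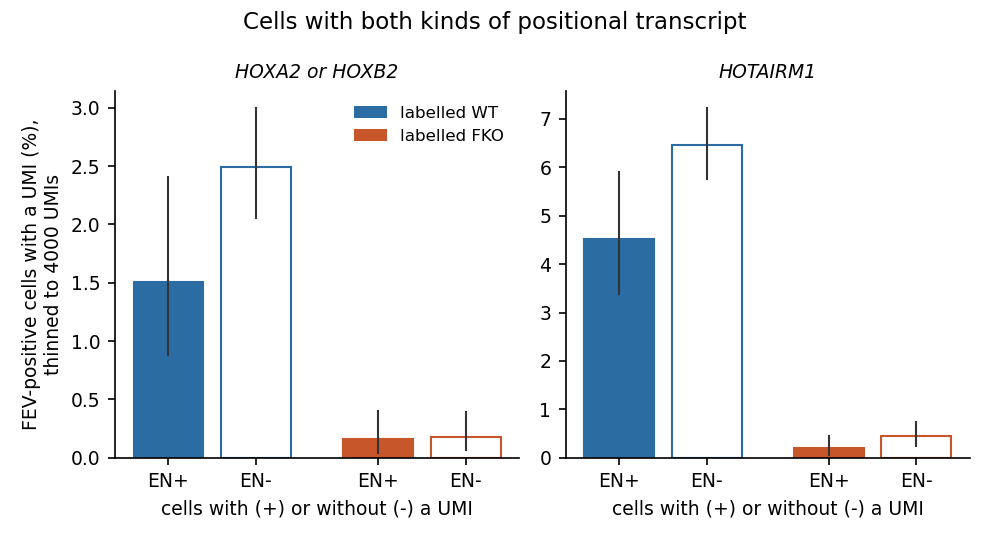
Percent of FEV-positive cells, each thinned to 4000 UMIs, with a UMI of HOXA2 or HOXB2 or of HOTAIRM1, in cells with (filled bars) and without (open bars) an engrailed UMI, with exact 95% binomial intervals. In the library labelled WT, HOTAIRM1 stood at 4.53% with and 6.46% without an engrailed UMI.

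The genes that go with HOXA2 describe the cells that hold it. Of 7981 genes with at least 10 CPM in FEV-positive cells of both libraries, those most like HOXA2, by the lower of the log2 ratios of cells with over cells without its transcript, were CRABP1, GPC3, ZNF503, TUBA1C and IRX3. CRABP1, which binds retinoic acid in the cell, had 234.8 CPM in the 358 cells labelled WT with HOXA2 and 102.1 in the others (log2 ratio 1.20), and 943.2 and 83.4 CPM in the library labelled FKO (3.5001). The last ratio rests on 13 cells, in a split where 3.32% of 9421 genes were past 2-fold higher and 10.6% past 2-fold lower. For the other 4 genes the ratios lay between 0.63 and 0.85 in the library labelled WT and between 0.85 and 2.10 in that labelled FKO, where they rest on 7 to 12 UMIs in those cells and that of IRX3 (-0.29 to 1.78) covered 0.

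Ranked in the library labelled WT alone, a choice made after the data had been seen, MEIS2 came first, followed by CRABP1, LRRC77P, HOTAIRM1 and GPC3. MEIS2, the HOX partner, had 102.6 CPM in the cells with HOXA2 and 33.5 in the others (1.61, 1.47 to 1.75), and MEIS1 22.2 and 13.3 (0.74). CYP26A1, found in only 52 of 5626 FEV-positive cells labelled WT, had 8.50 and 2.24 CPM (1.92, 1.41 to 2.41). EN1 was lower in the cells with HOXA2, at 51.4 and 71.3 CPM (-0.47, -0.66 to -0.30). FEV itself had 1563 and 1605 CPM. Both sides had been chosen by an FEV UMI, so these values do not tell how HOXA2 goes with FEV over all kept cells. Of all 8179 genes with at least 10 CPM, 3 (0.0367%) were more than 2-fold higher in the cells with HOXA2 and 7 (0.0856%) more than 2-fold lower. Split by HOTAIRM1 in the same way, 0.0611% of genes were past 2-fold higher in cells labelled WT, MEIS2 (1.32) the first of them, and 0% past 2-fold lower, against 0.52% and 3.24% in cells labelled FKO.

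Markers of visceral motor neurons, which arise next to serotonin neurons from the same progenitors, were also found with HOXA2. In FEV-positive cells labelled WT the list of 6 summed to 18.5 CPM with and 3.12 without HOXA2, and 5 of the 6 were higher with it. ISL1, its most abundant gene, had 12.4 and 1.66 CPM (log2 ratio 2.90, 2.43 to 3.35). TBX20 had 0 and 1 UMI. This was not particular to visceral motor markers. The GABAergic list (3.86 and 1.97 CPM, log2 ratio 0.97, 0.21 to 1.65) was also higher with HOXA2, in 4 of 5 genes. So was the glutamatergic list (7.15 and 4.54 CPM, 0.65, 0.12 to 1.15), in 1 of 5 genes. The floor plate list was lower (26.3 and 50.5 CPM), and the intervals of the dopaminergic, astrocyte, oligodendrocyte lineage and mesenchymal lists covered 0. Split by HOTAIRM1 the visceral motor list had 3.46 CPM with and 4.33 without it and 1 of 6 genes higher, and the interval of its log2 ratio (-0.80 to 0.13) covered 0. The cycling list differed in opposite directions, with 24.3 CPM with and 53.6 without HOXA2 but 91.8 with and 42.8 without HOTAIRM1. The serotonergic list summed to 2937 and 2968 CPM in the same cells, and the part of visceral motor transcripts in the HOXA2 signal was not tested.

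EN1 picked out a different set. This split was made without thinning, and cells with EN1 were deeper than those without. Their median depths were 13419 and 11853 UMIs in the library labelled WT and 7447 and 6464 in that labelled FKO. The part of depth in the values below was not tested. Split by EN1, 0% of 8178 genes were past 2-fold higher and 0% past 2-fold lower in cells labelled WT. In cells labelled FKO, 0% of 9420 genes were past 2-fold higher and 0.244% past 2-fold lower. Among the genes most like EN1 in both libraries were TAC1 (0.79 in the library labelled WT against 0.54 in that labelled FKO), HEY1 (0.69 and 0.50), OXR1 (0.41 and 0.53) and FAT1 (0.66 and 0.34). TAC1, the gene of substance P known from caudal serotonin neurons, had 414.0 CPM in cells labelled WT with EN1 and 239.7 in those without, and 1563 and 1079 CPM in those labelled FKO. Between the libraries as a whole TAC1 had 325.9 CPM labelled WT and 1327 labelled FKO. HOXA2 (-0.42), HOTAIRM1 (-0.28), MEIS1 (-0.44), MEIS2 (-0.43) and CYP26A1 (-0.69) were all lower in the cells labelled WT with EN1. Of these, HOTAIRM1, MEIS1, MEIS2 and CYP26A1 were higher in the cells with HOXA2.

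**Figure D4:**
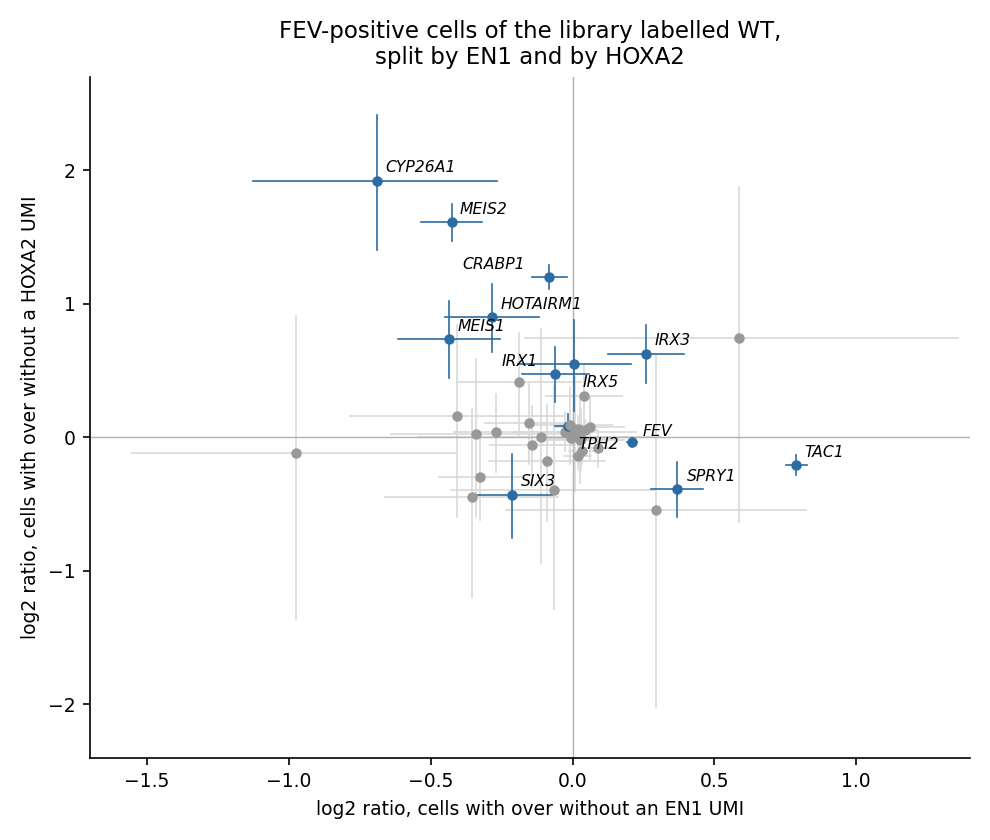
Log2 ratio of pooled levels in FEV-positive cells labelled WT with over without an EN1 UMI (x axis) and with over without a HOXA2 UMI (y axis), for 40 list genes with at least 5 UMIs on each side of both splits, with exact 95% intervals and chosen genes named in blue. CYP26A1, MEIS2, MEIS1 and HOTAIRM1 sit at the upper left, TAC1 and SPRY1 at the lower right, and in all 14 genes were lower with EN1 and higher with HOXA2, 9 the reverse, 8 higher with both and 9 lower with both.

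How the members spread over kinds of cell was read from 7 clusters of both libraries, made without any of the genes on the lists used here. HOXA2 was lower in the library labelled FKO in 6 of the 7 clusters, though in cluster 6 the interval of its log2 ratio (-4.31 to 0.22) covered 0 and in cluster 4 it had 9 UMIs against 0, and it had 0 UMIs from either library in cluster 7, the cluster of the shallowest cells (medians of 2302.5 and 2577.5 UMIs). In the library labelled WT it ranged from 12.7 CPM in cluster 5 (9.43 to 16.7) through 8.67 in cluster 3, 6.21 in cluster 2 and 3.91 in cluster 1 to 2.65 in cluster 4 and 2.62 in cluster 6. Neighbours in this order had overlapping intervals except clusters 2 (5.03 to 7.59) and 1 (3.32 to 4.57). In the library labelled FKO no cluster was above 0.758 CPM.

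Clusters 4 and 5 of the library labelled WT, which differed in HOXA2, were close in median depth. Cluster 5, with a median of 11988 UMIs, held it in 35 of 285 cells (12.3%, 8.70 to 16.7%), and cluster 4, with a median of 11911, in 9 of 275 (3.27%, 1.51 to 6.12%). HOTAIRM1 followed, with 23.5% of cells (18.7 to 28.9%) in cluster 5 and 4.36% (2.27 to 7.498%) in cluster 4. Their mean depths lay further apart, at 12355 UMIs in cluster 4 and 13813 in cluster 5, so depth is matched here by the median alone.

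Cluster 5 was also where other genes of the HOXA2 side were high in the library labelled WT. It held 347.3 CPM of MEIS2, against 17.2 in cluster 1, and 99 of the 220 CYP26A1 UMIs, and its leading genes were SST, LHX9, NRN1, LHX5-AS1 and EBF3. FEV was lower there, at 352.8 CPM labelled WT and 338.9 labelled FKO, than in cluster 1 (1755 and 1042). The visceral motor list summed to 63.8 CPM in cluster 5 labelled WT and 18.7 labelled FKO, and the glutamatergic list to 99.6 and 227.0. Beside these values the cluster is given no cell type name.

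In 7 of 7 clusters EN1 was higher in cells labelled FKO, but not by the same measure. In cluster 1 it had 74.1 and 192.4 CPM (log2 ratio 1.38, 1.31 to 1.44), and in cluster 4, whose leading genes were ONECUT3 and KCTD16 among those with a symbol, 80.9 and 207.1 CPM. In cluster 5 it had 61.7 and 72.9 CPM (0.24, 0.01 to 0.47) and in cluster 6 30.5 and 39.1 CPM (0.36, -0.01 to 0.73), and after the median of all genes of each cluster was taken off both fell on the lower side (-0.21 and -0.12). Cluster 6 carried the mesenchymal list at 688.4 CPM labelled WT and 3209 labelled FKO and the cycling list at 1047 and 906.4 CPM, and the part of such cells in EN1 was not tested. In the library labelled WT the order was cluster 4, 1, 3, 2, 5, 6 and 7, and clusters 1 to 4 did not differ beyond their intervals except that cluster 2 (66.8, 62.8 to 71.0) lay under cluster 1 (71.5 to 76.8) and cluster 4 (71.7 to 91.1).

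OTX2 gathered in clusters with little FEV, and EN2 did so in part. EN2 was highest in cluster 5 of the library labelled FKO (8.69 CPM), followed by cluster 2 (5.05) and cluster 6 (4.55), and of its 143 UMIs there 51 lay in cluster 5, 18 in cluster 6 and 38 in the FEV-rich cluster 2. OTX2 had 41 of its 45 UMIs in that library in clusters 5 and 6. GBX2 was highest in cluster 5 of the library labelled WT (3.30 CPM) and had 1.87 CPM in the same cluster of that labelled FKO. EN1 was thus highest in FEV-rich clusters of the library labelled FKO, and OTX2 in the FEV-poor ones.

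**Figure D5:**
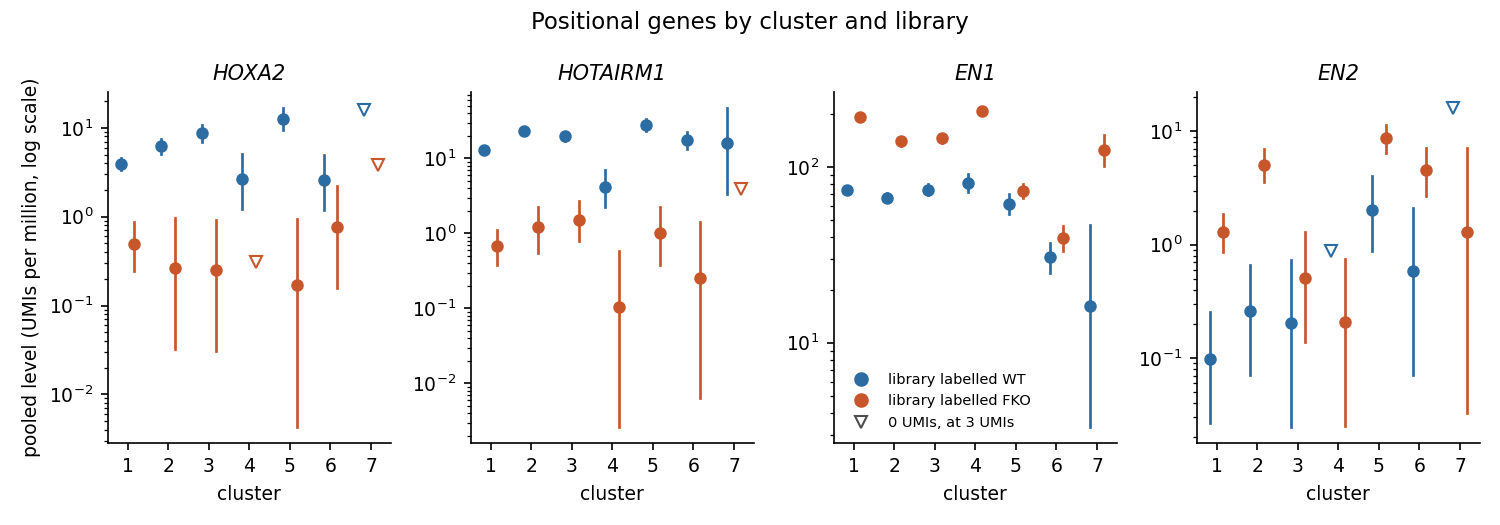
Pooled level in CPM (log axis) of HOXA2, HOTAIRM1, EN1 and EN2 in 7 clusters, numbered by size, for each library, with exact 95% Poisson intervals as lines and counts of 0 as open triangles at 3 UMIs. HOXA2 in the library labelled WT ran from 2.62 CPM in cluster 6 to 12.7 in cluster 5, and EN1 was between 72.9 and 207.1 CPM in clusters 1 to 5 of that labelled FKO.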

How the data were processed

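Raw UMI counts, deposited by the authors without normalization, came from Cell Ranger on GRCh38 (7.1.0 by the file headers, 7.0 in the submitters' notes). Kept cells had 1000 or more UMIs, 500 or more genes and no more than 10% mitochondrial UMIs. Before that, the barcodes with the highest Scrublet scores in each library (scanpy 1.11.5), 977 and 620 of all deposited, were marked as doublets and left out. Members and lists were chosen with earlier results of these data known. CPM pool the cells, ratios carry no pseudocount, and 3 UMIs replaced a 0 in a ratio. Intervals are Poisson (sums), Clopper-Pearson (shares) and conditional on the total (ratios), from scipy 1.17.1. No test between conditions was made. Thinning drew UMIs without replacement. Seurat 5.3.0 in R 4.3.3 joined the libraries by canonical correlation (2000 variable genes, 30 dimensions, resolution 0.2), with the genes of all lists and mitochondrial and ribosomal genes barred. Alternatives changed the filters, doublets, scaling, FEV classes, thinning and clustering.

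Named by rule are the members, the genes of the positional and serotonergic lists at 1 CPM or more in a library, FOXA2, the most abundant gene of each other list, and the 5 genes most like HOXA2 or EN1. Some genes that this rule covers are not reported here. Chosen after their values were seen were EGR2, FGF8, WNT1, TBX20, SOX10, COL1A1, PDGFRA, LRRC77P and the leading genes of clusters. Further lists summed, labelled WT and then FKO, to 2.36 and 4.92 CPM (GABAergic, GAD1 the most abundant), 17.6 and 12.5 (dopaminergic, TH), 6.19 and 8.55 (astrocyte, SLC1A3), 0.144 and 0.207 (pluripotent, NANOG), 5592 and 7299 (neuron, STMN2), 5.61 and 30.4 (glutamatergic, LHX1), 881.9 and 402.8 (retinoid) and 2.85 and 27.7 (oligodendrocyte lineage, with SOX10 at 0 labelled WT). In FEV-negative cells the last was 7.16 and 172.2. The procedures were run on simulated counts with known answers.

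Each condition is 1 library, so no value carries a measure of variation between cultures or clones. The libraries differ in depth and in the share of barcodes kept, and the FOXA2 transcript went against the labels. Few FEV-negative cells were left in the library labelled WT. Most HOX genes lay near the limit of detection, where a count of 0 does not show absence, and RNA says nothing of protein or of position in an embryo. Members were selected on these data.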

Additional observations from a re-analysis of the deposited data

How the results depend on the processing

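The lower level of HOXA2 in the library labelled FKO (log2 ratio -4.02) kept its direction under all alternatives and ranged from -4.49 to -3.93. Of 251 alternative values of 40 results, 189 stayed within the range allowed for them, 56 moved past it and 6 turned their direction. That range was counting error, except for counts of genes, where it was a fixed factor around the reported count. The cause of each change given below was not tested, except that thinning to fewer or more UMIs lowers or raises every share by construction.

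A limit of 5% on mitochondrial UMIs left 338 cells labelled WT and 2891 labelled FKO. The log2 ratio of EN1 between the libraries (1.17 as reported) was then 1.66 (1.45 to 1.87), that of GBX2 turned to 0.61 (-2.17 to 6.04) on 1 and 11 UMIs, and that of EN1 between the FEV classes labelled FKO (2.43) was 1.82. Shares in FEV-positive cells labelled WT were 0.685% for HOXA2 (2 of 292 cells, 0.0831 to 2.45%) and 10.96% for EN1 (32 of 292, 7.62 to 15.1%), and for EN1 labelled FKO 29.1% (791 of 2721). HOXA2 or HOXB2 stood at 5.88% with (3 of 51, 1.23 to 16.2%) and 1.37% without an engrailed UMI (3 of 219, 0.283 to 3.95%) labelled WT. Each of these shares labelled WT has an interval that holds the share as reported. The EN1 ratio between libraries was 1.24 from the mean CPM of each cell, 0.70 with the median gene ratio set to 1, 1.26 in FEV-positive cells and 1.3004 in cells with a TPH2 UMI.

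Between the FEV classes labelled WT, EN1 (-0.33) turned to 0.076 at a limit of 20%, 0.68 over all barcodes, 0.49 with FEV read after thinning and 0.38 from 3 FEV UMIs, and HOXA2 turned to 0.25 over all barcodes. In those labelled FKO, EN1 was 0.98 after thinning, 1.43 from 3 FEV UMIs and 1.97 from the mean CPM of each cell, and its share from 3 FEV UMIs was 28.3%. EN2 there (-1.81) was -1.12 after thinning and -2.66 at the 5% limit. Reading FEV after thinning or from 3 UMIs moves cells with few FEV UMIs into the FEV-negative class, so those values compare other classes.

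Thinned to 4000 UMIs the shares of HOXA2 were 2.29% (WT) and 0.153% (FKO) and those of EN1 20.3% and 42.7%, and unthinned 6.36%, 0.205%, 43.6% and 57.3%. HOXA2 or HOXB2 with and without an engrailed UMI, labelled WT, stood at 0.601% and 1.22% when thinned to 2000 UMIs and 6.06% and 6.63% unthinned. HOTAIRM1 in their place, chosen after seeing the data, gave 4.53% and 6.46%.

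Of the 5 genes most like HOXA2, 1 remained from 50 CPM and 2 when ranked in cells labelled WT alone, also chosen after seeing the data. Of the 5 genes most like EN1, 2 remained from 50 CPM and 4 in that ranking. From 1 CPM, where more genes are compared, 1921 of 16402 genes were past 2-fold higher and 1822 lower. At resolution 0.4 HOXA2 was lower in 9 of the 10 clusters with 50 or more cells of each library (of 12), and without integration in 3 of 4 (of 7). The 2 largest clusters made without integration hold nearly all their cells from a single library. That last count takes in the largest, with 5069 cells labelled WT and 64 labelled FKO. It leaves out the next, with 15 labelled WT and 3917 labelled FKO, which are most of the cells labelled FKO. OTX2 gave no ratio at 5% mitochondrial UMIs or in subsets where a library had 0 UMIs. No paired analysis was possible because there was 1 library per condition. Depth limits what can be said of HOXB1, HOXB2 and HOXA3, and of OTX2 in the library labelled WT.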
